A study of Mus musculus with 6 samples.

Results

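The 10 mature miRNAs described here come from 2 polycistronic clusters, groups of hairpins cut from 1 transcript. The miR-17/92 cluster gives miR-17-5p, miR-18a-5p, miR-19a-3p, miR-20a-5p, miR-19b-3p and miR-92a-3p, and the miR-106b/25 cluster in the gene Mcm7 gives miR-106b-5p, miR-106b-3p, miR-93-5p and miR-25-3p. They were picked by name from the 2009 names of the deposited table, and all 10 names were found. The table covers 6 hearts of male mice, each isolated and perfused on a Langendorff system, which supplies a heart through the aorta outside the body. Ischemia-reperfusion (I/R) hearts, 3 in number, were stopped for 30 min with Tomas cardioplegia, a solution that arrests contraction, and then reperfused for 1 h. The 3 sham hearts went on beating. The sources used here give no strain, no age and no word on pooling, and both groups underwent isolation and perfusion, so neither is an untouched heart.

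The miR-17/92 cluster is known as a target of the transcription factor Myc and as a promoter of cell division, and in the mouse heart it has been linked to proliferation of cardiomyocytes. Its members fall into families that share a seed, the bases near the 5′ end through which a miRNA pairs with its target mRNAs. The miR-106b/25 cluster is a relative of it that is made from an intron of Mcm7, which encodes a subunit of the helicase of DNA replication. miRNAs of the miR-17 family repress the cell cycle inhibitor Cdkn1a, miR-92a restrains vessel growth in mice, and miR-25 has been reported to repress the calcium pump of heart muscle.

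The mature sequences are shown because the families, and the names that can be confused with each other, are defined by them. All 10 had an entry in RefSeq for GRCm38.p6. Capitals mark the seed, bases 2 to 8 counted from 1 at the 5′ end, and the prefix mmu, for mouse, is left out elsewhere.
mmu-miR-17-5p: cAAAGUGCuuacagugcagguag
mmu-miR-20a-5p: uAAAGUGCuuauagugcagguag
mmu-miR-93-5p: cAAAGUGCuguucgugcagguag
mmu-miR-106b-5p: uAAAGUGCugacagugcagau
mmu-miR-18a-5p: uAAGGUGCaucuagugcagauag
mmu-miR-19a-3p: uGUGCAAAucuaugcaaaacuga
mmu-miR-19b-3p: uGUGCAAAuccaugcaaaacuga
mmu-miR-92a-3p: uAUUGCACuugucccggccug
mmu-miR-25-3p: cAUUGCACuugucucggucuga
mmu-miR-106b-3p: cCGCACUGuggguacuugcugc

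Of the 10 lines, 4 carry the seed AAAGUGC, miR-18a-5p has AAGGUGC, the miR-19 pair has GUGCAAA, and miR-92a-3p and miR-25-3p, from different clusters, have AUUGCAC. The strand miR-106b-3p, with CGCACUG, shares its seed with no other listed name. From miR-17-5p to miR-20a-5p there are 2 substitutions, C1U and C12U, and from miR-19a-3p to miR-19b-3p there is 1, U11C, with positions counted from the 5′ end. From miR-17-5p to miR-106a-5p of a related cluster on chromosome X there is also 1, U10A. The sources used here do not say how reads that match such near-identical names were shared out, so each of these names is uncertain taken singly.

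The hairpins of the miR-17/92 cluster span 836 bases on the plus strand of chromosome 14, from 115043671 to 115044506 (GRCm38), and all of them lie in an exon of the only Mir17hg transcript that spans them, a long noncoding RNA gene at 115042879 to 115046727. The hairpins of the miR-106b/25 cluster span 498 bases on the minus strand of chromosome 5, from 138165321 to 138165818, inside Mcm7 at 138164583 to 138172422. Mir106b was intronic in both Mcm7 transcripts that span it, while Mir93 and Mir25 were intronic in 2 of 3 and overlapped an exon of the third. A second copy of the hairpin of miR-19b lies on the minus strand of chromosome X at 52741983 to 52742066, and one of miR-92a at 52741838 to 52741928. The mature miR-19b-3p and miR-92a-3p could therefore come from more than 1 locus.

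Levels are given in RPM, each library's reads on named miRNAs being scaled to 1000000, and each library held 7874103 to 9197869 such reads. The miRNAs that mark heart muscle were present. miR-1a-3p, the main one, stood at 351573 to 375821 RPM in I/R and 378281 to 382877 RPM in sham hearts. miR-208a-3p, whose host is the myosin gene Myh6, stood at 147 to 169 and 162 to 181 RPM. For miR-133a-3p the ranges were 798 to 1006 and 902 to 1798 RPM, and for miR-499-5p 5310 to 6248 and 5217 to 5913 RPM. The listed endothelial marker, miR-126a-3p, stood at 25349 to 31326 RPM in I/R and 24426 to 26946 RPM in sham hearts. Listed markers of red blood cells summed to 1.52 to 5.26 RPM in I/R and 3.33 to 6.85 RPM in sham hearts, and those of leukocytes to 75.9 to 78.5 and 67.8 to 91.5 RPM, nearly all of it miR-150-5p. The libraries are whole-tissue samples, so fewer cells of a type and less miRNA per cell cannot be told apart. The labels call the hearts of a group biological replicates and say no more of their origin, so p-values measure the spread between these hearts only.

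Both clusters were minor in the heart. Over the 6 hearts the miR-17/92 members together held 0.0352% of the reads and the miR-106b/25 members 0.0451%. These are shares of reads as entered under names. Outside the clusters miR-3074-5p averaged 5505 RPM in I/R and 5054 RPM in sham hearts, and miR-24-3p 5517 and 5058 RPM. Whether some reads were entered under more than 1 name was not tested. The 10 levels differed widely although each cluster is made as 1 transcript, with miR-25-3p at a mean of 374 RPM and miR-18a-5p at 0.449 RPM, a ratio of 832. The order from high to low was miR-25-3p, miR-92a-3p (235 RPM), miR-20a-5p (68.0 RPM), miR-106b-3p (36.8 RPM), miR-93-5p (24.5 RPM), miR-19b-3p (22.1 RPM), miR-17-5p (21.5 RPM), miR-106b-5p (15.6 RPM), miR-19a-3p (5.13 RPM) and miR-18a-5p. Between neighbours in this order the ranges over the 6 hearts overlapped from miR-93-5p to miR-106b-5p and not elsewhere, and of these miR-19b-3p and miR-17-5p could not be ordered, since miR-19b-3p was above in 4 of 6 hearts. Ligation and amplification can differ between sequences, so ratios between names are those of their reads.

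The most abundant name of each cluster lay at its downstream end. miR-92a-3p, encoded by the sixth and last hairpin of Mir17hg, made up 66.6% of the reads of the miR-17/92 members on average (62.7% to 70.1% per heart). The copy on chromosome X encodes the same mature sequence, so these reads cannot be assigned to Mir17hg alone. miR-25-3p, from the last hairpin in Mcm7, made up 82.8% of those of the miR-106b/25 members (80.7% to 85.3%). Both carry the seed AUUGCAC, and this seed accounted for 75.8% of the reads of the 10 names. The seed AAAGUGC of the miR-17 family accounted for 16.1%, spread over miR-20a-5p, miR-93-5p, miR-17-5p and miR-106b-5p, and that of miR-19 for 3.39%. Within the hairpin row of Mir17hg the levels did not simply increase toward the end, since miR-17-5p in the first hairpin stood above miR-18a-5p and miR-19a-3p in the next ones.

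Each hairpin yields 2 arms, of which usually 1 is kept in the silencing complex. Opposite arms were scarce in most of these hairpins. Over the 6 hearts miR-20a-5p had 3411 reads and miR-20a-3p 0, which allows up to 3 reads, and miR-19a-3p had 259 reads and miR-19a-5p 0. The 5p arm made up 95.2% of the reads of Mir17 (1082 of them, against 54 of miR-17-3p) and 96.8% of those of Mir93, and the 3p arm 99.7% of those of Mir25, with 18776 reads against 56. The arms of Mir106b were closer to each other. Its 3p arm had 1851 reads and its 5p arm, the one that belongs to the miR-17 family, 789, so that the 5p arm made up 29.9% (95% Wilson interval 28.2% to 31.7%). Mir18 had 23 reads of its 5p arm and 7 of its 3p arm, a 5p share of 76.7% (95% Wilson interval 59.1% to 88.2%). Its larger arm was thus the 5p arm, unlike that of Mir106b. These reads are too few to compare the share of the scarcer arm between the 2 hairpins. No source used here mentions molecular identifiers, so such intervals cover counting error only. The hairpins of miR-106b and miR-25 are printed to show the arms, in capitals, of a hairpin with many reads of both arms and of the one behind the most abundant name.
Mir106b: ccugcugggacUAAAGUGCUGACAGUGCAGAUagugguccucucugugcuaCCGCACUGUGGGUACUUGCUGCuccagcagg
Mir25: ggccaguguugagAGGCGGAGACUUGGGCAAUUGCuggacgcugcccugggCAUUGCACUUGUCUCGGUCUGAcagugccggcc

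The main comparison asked which miRNAs differ between hearts after arrest and reperfusion and sham hearts. Of the 10 names 9 were tested, since miR-18a-5p had a mean below 1 RPM, and none passed the threshold. In limma, with p-values adjusted over all 409 names tested, the adjusted p of the 9 was 0.598 to 0.937. Over all names limma called 0 (0%) and edgeR 0, while DESeq2 called 2 (0.489%), miR-5103 and miR-6240. At an unadjusted p under 0.05 limma had 30 (7.33%), of which 29 (7.09%) were higher and 1 (0.244%) lower in I/R, and edgeR had 26 (6.36%); without I/R heart 3 limma had 9 higher and 1 lower. That split was 11 higher and 13 lower with TMM scaling, 15 and 11 with median-ratio scaling, 16 and 6 with totals without the 10 most abundant names, and 10 and 6 after quantile normalization. With the replicate number as a block limma called 4 (0.978%), and 0 of the 9. Log2 fold changes, I/R over sham, are of (RPM + 1), which understates the change of scarce names. Every 95% interval of the 9 lay within 0.68 of 0 on this scale, so for each of them a difference of 1 log2 unit lies outside its interval.

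miR-25-3p, the most abundant of the 10, had the smallest p. It stood at 418, 385 and 409.6 RPM in I/R hearts 1 to 3, against 352, 333 and 344 RPM in sham hearts 1 to 3. All I/R hearts lay above all sham hearts, with means of 404 ± 17.4 and 343 ± 9.51 RPM (SD, n = 3 each). The log2 fold change was 0.23 (SE 0.10, 95% interval 0.02 to 0.45), with an unadjusted limma p of 0.0376 and an adjusted p of 0.598. Reads behind these values numbered 3146 to 3428 in I/R and 2788 to 3240 in sham libraries, and the spread between hearts was 2.46 and 1.51 times what counting alone gives.

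Part of this difference depends on what the totals are taken over. The deposited totals are equal. The 4 heart muscle markers summed to 357828 to 383230 RPM in I/R and 385458 to 389856 RPM in sham hearts, without overlap and nearly all of it miR-1a-3p, while the other 3 markers overlapped between the groups. The median log2 fold change of all 409 names was 0.10. With TMM scaling the log2 fold change of miR-25-3p was 0.12, and its groups overlapped, at 373 to 412 in I/R and 339 to 383 in sham hearts on that scale, as they did with median-ratio scaling. With totals taken without the 10 most abundant names they did not overlap, at 378 to 421 in I/R and 337.7 to 363.1 in sham hearts. The share of all names with groups apart on those totals is not given here. The log2 fold change of miR-25-3p was positive in 21 of 21 alternatives run, as were those of miR-106b-3p, miR-17-5p and miR-92a-3p. All alternatives reuse these hearts. Those that change only the filter, the spread estimate or the block leave the value as it was, so the count is no independent support.

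The partner from the same Mcm7 transcript, miR-106b-5p of the miR-17 family, did not share that direction. It had 15.6, 15.7 and 11.0 RPM in I/R hearts, against 14.9, 20.2 and 16.1 RPM in sham hearts, with means of 14.1 ± 2.65 and 17.1 ± 2.81 RPM (SD, n = 3 each). The groups overlapped, I/R heart 3 was the lowest and sham heart 2 the highest, and the log2 fold change was -0.26 (95% interval -0.68 to 0.16, limma adjusted p = 0.661). It was -0.11 without I/R heart 3 and -0.14 without sham heart 2. With TMM or median-ratio scaling all I/R hearts lay below all sham hearts, at 10.05 to 15.5 and 16.2 to 20.6 with TMM. The share of all names so placed under these 2 scalings is not given here. miR-93-5p, of the same family, had 23.2, 26.3 and 23.0 RPM in I/R and 23.2, 27.4 and 24.0 RPM in sham hearts. These values were nearly alike in each same-numbered pair, a pairing that the labels do not give. The log2 fold change of miR-93-5p was -0.04 (95% interval -0.35 to 0.27, limma adjusted p = 0.935).

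The other arm of miR-106b stood with miR-25-3p. miR-106b-3p had 38.6, 42.6 and 36.6 RPM in I/R hearts, against 35.4, 32.0 and 35.8 RPM in sham hearts. The groups did not overlap, with 36.6 RPM in the lowest I/R heart and 35.8 RPM in the highest sham heart, but with TMM or median-ratio scaling or totals without the 10 most abundant names they did. The log2 fold change was 0.18 (95% interval -0.11 to 0.47, limma adjusted p = 0.661), from means of 39.2 ± 3.05 and 34.4 ± 2.11 RPM (SD, n = 3 each). Of the 9 tested names these 2 had all I/R hearts above all sham hearts and 0 had them below. Over all 409 names 11.2% had them above and 3.91% below.

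**Figure D1:**
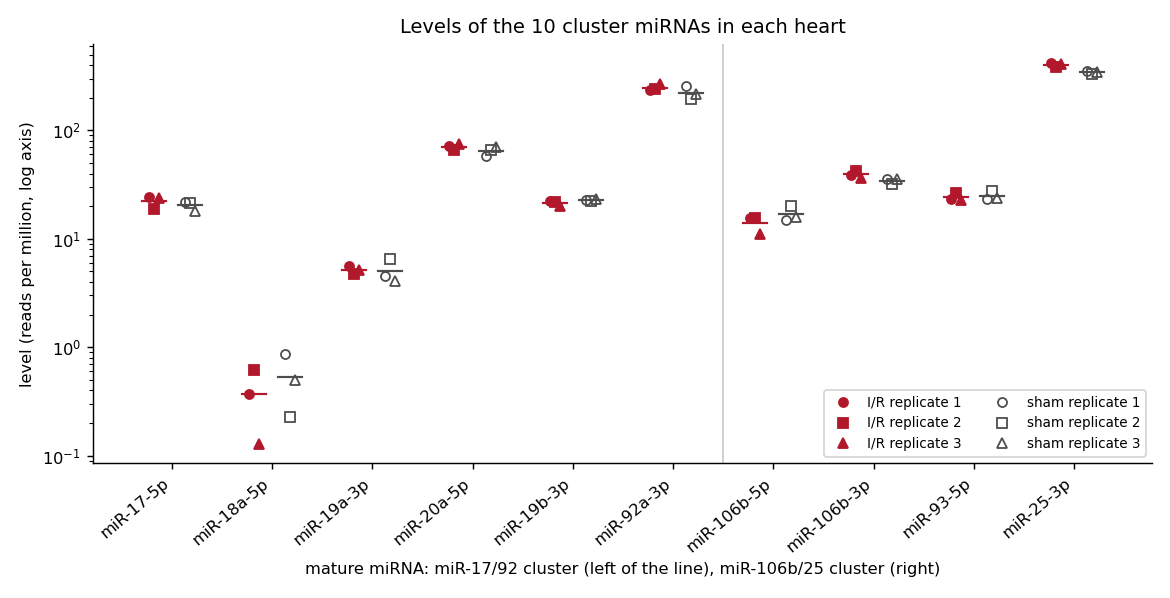
Level of each of the 10 miRNAs in each heart (RPM, log axis), with I/R hearts as filled red symbols left of sham hearts as open grey symbols, 1 symbol shape per replicate number and a line at each group's mean. The groups are apart for miR-25-3p (385 to 418 RPM in I/R, 333 to 352 RPM in sham) and for miR-106b-3p (36.6 to 42.6 and 32.0 to 35.8 RPM), and overlap for the other 8.

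Ratios between names within a heart do not depend on how libraries are scaled. The reads of miR-106b-3p were 2.47, 2.72 and 3.31 times those of miR-106b-5p in I/R hearts 1 to 3, against 2.38, 1.58 and 2.23 times in sham hearts. All I/R hearts were above all sham hearts, by little between I/R heart 1 and sham heart 1. As log2 of 5p over 3p the ratio was -1.43 ± 0.20 in I/R and -0.98 ± 0.30 in sham hearts (SD, n = 3 each), a difference of -0.45 (95% interval -0.91 to 0.02), and -0.27 without sham heart 2. In limma over 94 precursors with both arms tested, its adjusted p was 0.596, and 0 of 94 passed (0%), while 6 (6.38%) had an unadjusted p under 0.05. Groups were apart with I/R lower in 6 (6.38%) of the 94, miR-106b among them.

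The ratio of miR-25-3p to miR-106b-5p, both from Mcm7, also kept the groups apart, at 26.8, 24.6 and 37.1 in I/R and 23.6, 16.5 and 21.4 in sham hearts. I/R heart 3, with 87 reads of miR-106b-5p, set the top of that range. The ratio of miR-25-3p to miR-93-5p overlapped between groups, at 18.04, 14.6 and 17.8 in I/R and 15.2, 12.2 and 14.4 in sham hearts. It was higher in the I/R heart of each same-numbered pair, though the labels do not give such pairs. These ratios were chosen after the values were seen and have no test.

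**Figure D2:**
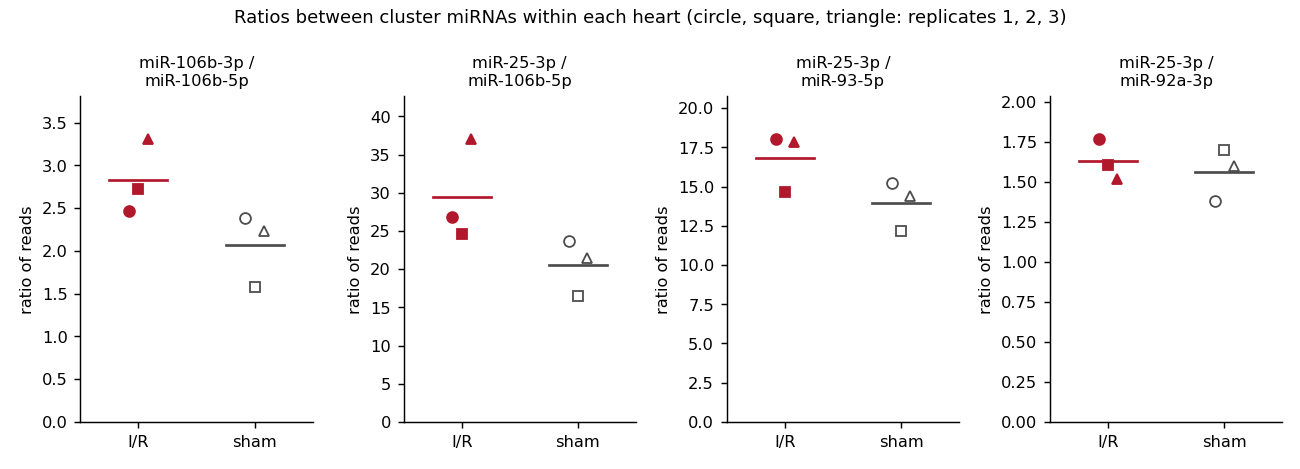
Ratio of the reads of 2 names within each heart, with I/R hearts left (filled red) and sham hearts right (open grey), a line at each mean and axes from 0. The groups are apart for miR-106b-3p over miR-106b-5p (2.47 to 3.31 in I/R, 1.58 to 2.38 in sham) and for miR-25-3p over miR-106b-5p (24.6 to 37.1 and 16.5 to 23.6), and overlap for miR-25-3p over miR-93-5p and over miR-92a-3p.

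Of the other hairpins with both arms tested, the log2 ratio of 5p to 3p for miR-17 was 3.60 ± 0.20 in I/R and 3.31 ± 0.24 in sham hearts (SD, n = 3 each), with a limma adjusted p of 0.672. For miR-25 it was -7.43 ± 0.17 and -7.52 ± 0.24, with a limma adjusted p of 0.967. These 2 rest on opposite arms near 1 RPM, so the pseudocount of 1 RPM pulls their ratios toward 0.

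In the miR-17/92 cluster no member had separate groups. miR-92a-3p, the family partner of miR-25-3p, had 236, 239 and 269.7 RPM in I/R hearts, against 255, 196 and 215 RPM in sham hearts. Sham heart 1 lay among the I/R hearts, and the means were 249 ± 18.4 and 222 ± 30.3 RPM (SD, n = 3 each). The log2 fold change was 0.17 (95% interval -0.12 to 0.46, limma adjusted p = 0.678). Its spread was 3.32 times that of counting in I/R and 5.99 times in sham hearts, the widest of the 10 by this measure.

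The miR-17 family members of the cluster had intervals on both sides of 0. miR-20a-5p had 71.5, 65.9 and 75.2 RPM in I/R hearts, against 58.4, 66.1 and 70.6 RPM in sham hearts. The groups overlapped, and the log2 fold change was 0.12 (95% interval -0.16 to 0.41, limma adjusted p = 0.791), with the sign turned under quantile normalization. miR-17-5p had 24.5, 19.0 and 24.0 RPM in I/R hearts, against 22.0, 21.4 and 18.03 RPM in sham hearts, with a log2 fold change of 0.13 (95% interval -0.23 to 0.48, limma adjusted p = 0.798). Its lowest I/R heart stood between the sham hearts. Within a heart there were 2.92 to 3.48 reads of miR-20a-5p per read of miR-17-5p in I/R and 2.66 to 3.92 in sham hearts.

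In the miR-19 family, too, the groups were not apart. miR-19b-3p had 22.2, 21.9 and 20.2 RPM in I/R hearts, against 22.9, 22.2 and 23.3 RPM in sham hearts. The groups met at 22.2 RPM, and the log2 fold change was -0.09 (95% interval -0.37 to 0.20, limma adjusted p = 0.806). With TMM or median-ratio scaling, or with totals without the 10 most abundant names, all I/R hearts lay below all sham hearts. The share of all names so placed under these scalings is not given here, so this separation cannot be weighed. miR-19a-3p had 5.61, 4.77 and 5.21 RPM in I/R and 4.57, 6.56 and 4.07 RPM in sham hearts, with a log2 fold change of 0.05 (95% interval -0.39 to 0.49, limma adjusted p = 0.937) whose sign turned under all 4 other scalings and both count models.

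miR-18a-5p, the scarcest member, had 3, 5 and 1 reads in I/R hearts and 8, 2 and 4 reads in sham hearts, or 0.366, 0.611 and 0.127 RPM, against 0.870, 0.226 and 0.494 RPM. The groups overlapped, and the SD of 0.242 RPM in I/R and 0.323 RPM in sham hearts was close to the 0.213 and 0.247 RPM that counting alone gives. It was left out of the main test, and in limma without a filter, over 1259 names, its log2 fold change was -0.16 (95% interval -0.68 to 0.37, adjusted p = 0.791). No difference in miR-18a-5p was found at this depth. With 1 to 8 reads a library and 1 RPM added to levels below it, even a large one could have been missed.

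**Figure D3:**
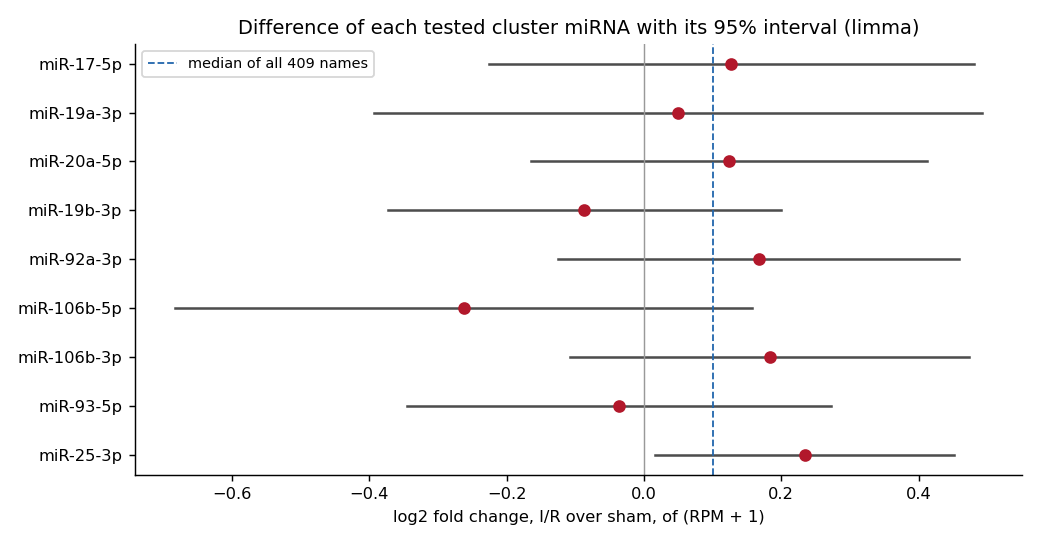
Log2 fold change (I/R over sham, of RPM + 1) of the 9 tested names as points, with the 95% interval from limma as bars, a grey line at 0 and a dashed line at the median of all 409 names, 0.10. The interval of miR-25-3p, from 0.02 to 0.45, leaves out 0 but holds the dashed line, and the other 8 intervals hold 0.

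Counted together, 6 of the 9 log2 fold changes were positive, as were 287 of 409 (70.2%) over all names. The median of the 9 was 0.12, beside 0.10 for all names, and 5 of the 9 lay above that median. By cluster the median was 0.12 for the 5 tested miR-17/92 names and 0.07 for the 4 miR-106b/25 names. Under TMM scaling these medians were 0.01 and -0.04, and that of all names -0.01. An unadjusted p under 0.05 was found for 1 of 9, miR-25-3p, beside 7.33% of all names.

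Sums over members, given without a test, followed the most abundant name. The miR-106b/25 names summed to 482 ± 13.3 RPM in I/R and 419.5 ± 6.45 RPM in sham hearts (SD, n = 3 each), with no overlap. The miR-17/92 names summed to 369 ± 22.6 and 336 ± 26.1 RPM, with overlap. These sums are on the deposited totals only, and miR-25-3p, most of the first sum, overlapped between groups with TMM and median-ratio scaling. By seed, AUUGCAC stood at 653 ± 27.6 RPM in I/R and 565 ± 39.5 RPM in sham hearts. The 4 names with AAAGUGC stood at 132 ± 4.24 and 127 ± 8.41 RPM, and the miR-19 seed at 26.6 ± 1.21 and 27.9 ± 0.723 RPM.

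**Figure D4:**
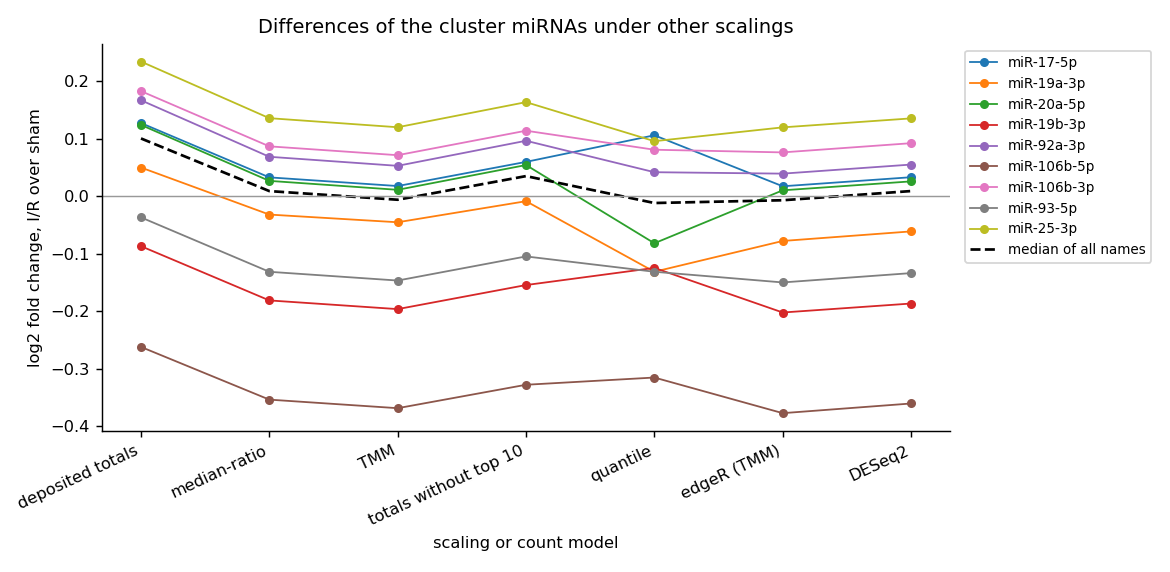
Log2 fold change (I/R over sham) of the 9 tested names with the deposited totals, 4 other scalings and 2 count models, 1 line per name, with the median of all names dashed. Most lines move in parallel with the median, from 0.10 with deposited totals to -0.01 with TMM; miR-25-3p is the highest line at 0.23 and 0.12 in these 2 settings, and miR-106b-5p the lowest at -0.26 and -0.37.

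Close relatives outside the 2 clusters were scarce. The cluster on chromosome X that holds miR-106a-5p and miR-363-3p is a paralog of miR-17/92 that also carries copies of miR-19b and miR-92a. Its 10 listed names, all of them specific to that cluster, had 24 reads in all over the 6 libraries, 13 of them of miR-363-3p, and 4 names had 0. miR-106a-5p, 1 substitution from miR-17-5p, had 1 read, and miR-20b-5p, 2 substitutions from miR-20a-5p, had 3. The opposite arms that tell the copies apart were also scarce, with 0 reads of miR-19b-2-5p and miR-92a-2-5p from chromosome X, and 0 of miR-19b-1-5p and 12 of miR-92a-1-5p from chromosome 14. A count of 0 allows up to 3 reads, or 0.326 to 0.381 RPM in a library. Which copy the reads of miR-19b-3p and miR-92a-3p came from was not tested. Their read counts were odd in 4 and 2 of the 6 libraries, so not every read there can have been entered once for each of 2 copies. Whether part of the reads was entered more than once was not tested.

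Other names with the seed AUUGCAC were below miR-92a-3p and miR-25-3p. miR-32-5p stood at 10.8 ± 0.785 RPM in I/R and 11.3 ± 2.001 RPM in sham hearts (SD, n = 3 each), with a log2 fold change of -0.06 and a limma adjusted p of 0.908. miR-92b-3p stood at 1.48 ± 0.096 and 1.19 ± 0.088 RPM with groups apart, from only 10 to 13 reads a library. Over all 409 names 11.2% had groups apart with I/R higher. The log2 fold change of miR-92b-3p was 0.18, with a limma adjusted p of 0.792. miR-367-3p had 0 reads. Of the 21 listed opposite arms and relatives 4 were tested (miR-17-3p, miR-25-5p, miR-32-5p and miR-92b-3p), and 0 passed in either direction, with 0 at an unadjusted p under 0.05.

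The names most like each cluster were sought by Pearson's r of log2 levels over the 6 libraries, among 224 other names of at least 10 RPM. For the mean of the 5 tested miR-17/92 names they were miR-378b (r = 0.91), miR-335-3p (0.90) and miR-872-5p (0.89), and for that of the 4 miR-106b/25 names miR-490-3p (0.93), miR-126b-5p (0.91) and miR-152-5p (0.84). With 6 libraries that share their totals and so many candidates these values are a description only. Between tested members of the same cluster r ran from -0.66, for miR-106b-5p with miR-25-3p, to 0.73, for miR-106b-5p with miR-93-5p, again as a description over the same 6 libraries.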

How the data were processed

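The deposited table holds 1 signal value per mature miRNA name and heart, called FPKM in its name. The submitters' processing notes name the mm10 genome, fastp 0.23.0 and bcl2fastq 2.19.1.403. For the aligner, the annotation and the treatment of reads with several matches the answer is not given in the sources used here. The labels' protocols describe poly(A) mRNA kits, although the titles say miRNA-seq. The 6 deposited signal columns had equal totals, and 100% of their values were whole multiples of 1 step per library (tolerance 0.01 reads), which gave back reads and RPM (reads scaled to a library total of 1000000); the factor was that of a constant length of 23.0 nt.

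I/R was compared with sham in limma 3.58.1 (R 4.3.3, with trend) on log2(RPM + 1), two-sided, with Benjamini-Hochberg adjustment over 409 names, those averaging 1 RPM or more and above 0 in at least 3 libraries. The threshold was 0.05. Arm balance used log2 of (5p + 1 RPM) over (3p + 1 RPM) in limma without trend, over 94 precursors. edgeR 4.0.16 and DESeq2 1.42.0 were run on the recovered read counts. The limma and edgeR fits of levels were tested on simulated counts. The named miRNAs are the 10 members, the listed opposite arms and relatives, and 3 names per cluster most like its mean level. The members and lists were chosen with earlier results of these data known. The labels do not say that hearts of the same replicate number belong together. Between such hearts the correlation of deviations from group means was 0.14, 0.28 and 0.16, all above 0.1. Between hearts of different numbers it was -0.19 to 0.07. The replicate block and the remarks on same-numbered pairs rest on this pattern in the same data, so the pairing is not established. The main comparison was unpaired.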

Additional observations from a re-analysis of the deposited data

How the results depend on the processing

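Of the 9 tested members 0 passed under all 21 alternatives run, and of 188 log2 fold changes of members under them 177 kept their direction. Alternatives that change only the filter, the spread estimate or the block leave a log2 fold change as it was. Their agreement in direction was therefore fixed in advance. The sign turned for miR-19a-3p under median-ratio scaling (-0.0319), TMM scaling (-0.0453, also with the replicate block), totals without the 10 most abundant names (-0.0086), quantile normalization (-0.13), edgeR with TMM (-0.0779) and DESeq2 (-0.0612). Quantile normalization also turned miR-20a-5p (-0.0819). With each heart left out in turn, log2 fold changes ranged from -0.0680 (without sham heart 3; below 0 also without sham heart 1) to 0.22 for miR-19a-3p, from -0.0969 to 0.0324 (without sham heart 2) for miR-93-5p and from 0.21 to 0.27 for miR-25-3p. They ranged from 0.08 (without sham heart 2) to 0.27 (without sham heart 1) for miR-92a-3p, where 0.11 was found without I/R heart 3. For miR-17-5p the range was 0.04 (without sham heart 3) to 0.24 (without I/R heart 2), with 0.06 and 0.08 without I/R hearts 1 and 3. For miR-20a-5p it was 0.05 (without sham heart 1) to 0.18, with 0.08 without I/R heart 3, and for miR-19b-3p -0.11 to -0.05 (without I/R heart 3). The arm balance of miR-106b ranged from -0.55 to -0.27 (without sham heart 2). The arm balance of miR-25 turned with a pseudocount of 10 RPM (-0.17), and ranged from -0.0174 (without sham heart 2) to 0.22 with each heart left out. The cause was not tested.

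Over all 409 names limma called 0, but 1 without a filter (miR-5103), DESeq2 called 2 (miR-5103 and miR-6240), and the fit with the replicate block 4 (these 2, miR-3963 and miR-3968), as did the block with TMM scaling, which was added after seeing the data. With each heart left out in turn it was 0 to 1, the 1 being miR-27a-5p without sham heart 2. These names were chosen after their values were seen. The arm balance count was 0 in all 10 fits run. With the block, the lowest adjusted p of a member was 0.359, for miR-25-3p, and the block changed no call of a member. Depth limits miR-18a-5p, at 1 to 8 reads a library, and the opposite arms, and names that differ by few bases may share reads.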
